A study of Homo sapiens with 20 samples.

Results

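RUNX1 occupancy was examined at the genes of 10 ETS transcription factors other than PU.1, namely FLI1, ERG, ETS1, ETS2, GABPA, ELF1, ELF4, ETV6, ETV3 and SPIB. The members are all RUNX1 ChIP-seq peaks within 50 kb of the GRCh38 RefSeq span of one of these genes, taken by position alone once the genes were listed, and they number 41 of the 26642 peaks in the deposited table. The cells were THP-1, a line established from a human acute monocytic leukemia. All cells received doxycycline and were harvested after 72 h. The knockdown group carried a doxycycline-inducible shRNA cassette against PU.1 and the control group an inducible scramble shRNA. The inducer and the induction of an shRNA were thus common to both groups. The groups are 1 pair of cell lines, so differences between the lines cannot be told apart from the knockdown. Each group had 6 RUNX1 libraries, which the study describes as cell line replicates with separate immunoprecipitations and library preparations. Its 2 experimental rounds, called batches in the labels, held 3 control and 2 knockdown libraries in batch 1 and 3 control and 4 knockdown libraries in batch 2. The comparison asks where RUNX1 binding was higher or lower once PU.1 was knocked down. ChIP-seq counts measure neither the PU.1 level nor the expression of monocytic markers, so the knockdown and the cell identity could not be checked on these libraries.

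ETS factors share a winged helix-turn-helix DNA-binding domain that recognizes a GGAA core, and PU.1, encoded by SPI1, is the member best known for directing monocyte and macrophage fate. RUNX1 is the DNA-binding subunit of core-binding factor, and in blood cells it often occupies the same enhancers as PU.1 and other ETS proteins, with FLI1, ERG and RUNX1 forming part of the factor network of hematopoietic stem and progenitor cells. Several of these genes, ERG and ETV6 among them, are themselves altered in leukemia.

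Below, the peaks of a gene are numbered from the lowest to the highest coordinate. A normalised read count is the number of reads in a peak divided by the size factor of its library. A peak was called gained or lost where the Benjamini-Hochberg adjusted p of DESeq2, taken over all 26642 peaks, was under 0.05 and the fitted fold change between knockdown and control was over 1.1 in either direction. Errors of log2 fold changes are standard errors of that fit.

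Of the 41 peaks, 11 were lost and 3 were gained upon PU.1 knockdown, and 27 were not called. The 14 calls made up 34.1% of the members, where 42% of all peaks were called. Lost peaks were 26.8% of the members against 20.7% of all peaks, and gained peaks were 7.32% against 21.3%. The median log2 fold change was -0.19 over the members and -0.03 over all peaks, and 58.5% of the members, against 51.96% of all peaks, had a value below 0. Each of the 10 genes had at least 1 called peak. At least 1 peak was lost at 9 of them, with ETS1 the exception, while ERG, ETS1 and SPIB had 1 gained peak each. The only calls at ETS2 and GABPA and both calls at ELF1 failed when single libraries were left out, as given with each gene below. Without knockdown replicate 1, 4 or 5 the lost peaks numbered 7, while the 3 gained peaks passed without any 1 library. With at least 10 counts required in every library, the lost peaks numbered 5 and the gained peaks 2. That minimum removed ERG peak 2, ETV6 peak 6 and ETS1 peak 1 before testing. A change of more than 2-fold was called at 4 of the 41 peaks, a smaller share than the 17.1% of all peaks. Of these 4, 3 were lost (ETV6 peak 6, ERG peak 2 and ETV3 peak 1) and 1 was gained (ETS1 peak 1). The counts do not tell whether RUNX1 was bound in fewer cells or less often in each cell.

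**Figure D1:**
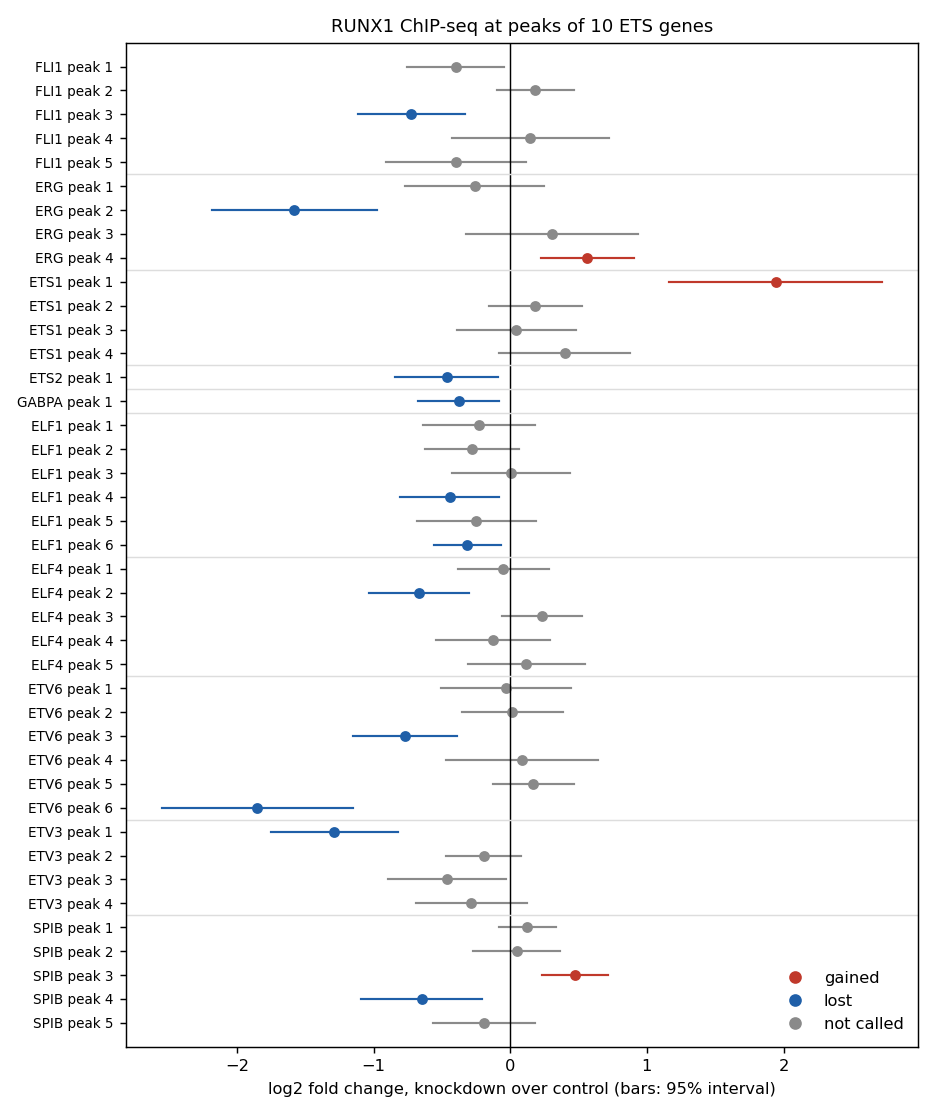
Log2 fold change of the RUNX1 count, knockdown over control, for the 41 peaks, with the peaks in rows by gene and bars for the 95% interval. The values run from -1.85 at ETV6 peak 6 to 1.94 at ETS1 peak 1, and the 27 uncalled peaks lie between -0.46 and 0.40.

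The libraries held 630247 to 1199004 reads within peaks in the control group and 938745 to 1719840 in the knockdown group. The members had mean normalised counts of 12.6 to 140.6 (median 34.6, against 31.2 over all peaks) and widths of 488 to 2787 bp (median 931 bp, against 889 bp). Their standard errors on the log2 scale had a median of 0.20 and ran from 0.11 to 0.40, so the precision was close to that of all peaks (median 0.21). At the median member, a fold change of 1.1 was therefore smaller than 1 standard error.

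Promoter sequences are shown for the 4 genes at which a RUNX1 peak covered the whole 250 bases before a listed transcription start, because these are the windows on which both the counts and the letters bear. GABPA (chr21:25734722-25734971, plus strand) and ELF1 (chr13:41061387-41061636, minus strand) had a lost peak there. ELF4 (chrX:130086934-130087183, minus strand, an internal start of the gene) and ETV3 (chr1:157138396-157138645, minus strand) had an uncalled one. The sequences are RefSeq's, on GRCh38.p14, written 5′ to 3′ on the strand of the gene, with capitals marking the RUNX core TGTGGT and the ETS core GGAAGT on either strand.
GABPA: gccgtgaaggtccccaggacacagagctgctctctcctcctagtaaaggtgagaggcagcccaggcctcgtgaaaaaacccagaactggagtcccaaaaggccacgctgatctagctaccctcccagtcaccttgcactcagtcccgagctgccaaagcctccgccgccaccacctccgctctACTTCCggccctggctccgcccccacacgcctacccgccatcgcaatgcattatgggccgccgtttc
ELF1: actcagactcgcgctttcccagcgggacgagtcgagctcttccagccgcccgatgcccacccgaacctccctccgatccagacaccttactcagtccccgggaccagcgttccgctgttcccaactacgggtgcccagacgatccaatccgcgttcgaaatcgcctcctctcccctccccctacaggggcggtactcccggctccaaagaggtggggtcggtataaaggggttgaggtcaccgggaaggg
ELF4: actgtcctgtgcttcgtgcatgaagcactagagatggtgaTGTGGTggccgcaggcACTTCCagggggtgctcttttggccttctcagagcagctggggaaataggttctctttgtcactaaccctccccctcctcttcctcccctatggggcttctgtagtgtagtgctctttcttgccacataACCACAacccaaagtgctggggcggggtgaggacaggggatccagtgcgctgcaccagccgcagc
ETV3: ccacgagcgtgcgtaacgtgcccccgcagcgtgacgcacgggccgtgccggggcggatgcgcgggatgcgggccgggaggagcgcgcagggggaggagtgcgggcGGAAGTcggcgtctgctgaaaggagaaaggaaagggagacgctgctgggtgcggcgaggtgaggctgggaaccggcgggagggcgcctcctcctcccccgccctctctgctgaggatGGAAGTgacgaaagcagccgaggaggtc
The ELF4 window held 2 RUNX cores and 1 ETS core. The ETV3 window held 2 ETS cores, the GABPA window 1, and the ELF1 window neither. The longer PU.1-type letters GAGGAAGT, which contain GGAAGT, were in none of the 4 windows. Over the 35116 windows of this length in the reference table, 11% held the RUNX core, 19.5% the ETS core and 2.17% the PU.1-type letters. A match of letters is a description and not a binding site. These windows reach into the neighbouring genes at 2 of the loci, ATP5PF at GABPA and WBP4 at ELF1.

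FLI1 and ERG are closely related activators that maintain stem and progenitor cells and the megakaryocyte and endothelial lineages. At FLI1 (chr11:128685132-128813267), all 5 peaks lay within the gene and 1 of them was lost. FLI1 peak 3 (chr11:128734127-128735114, 988 bp) had 33.7, 41.9 and 52.03 normalised reads in the lowest, median and highest control library and 20.1, 25.3 and 34.4 in the knockdown libraries. The groups touched, since the highest knockdown library was just above the lowest control library. The log2 fold change was -0.72 ± 0.20 (adjusted p = 0.0012). It was -0.88 in batch 1 and -0.62 in batch 2, neither of which passed on its own (adjusted p = 0.128 and 0.0877).

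The strongest FLI1 peak, peak 2 (chr11:128725404-128726288), was not called. Its control libraries spanned 48.1 to 89.3 reads and its knockdown libraries 65.3 to 76.4, a range that lies inside that of the controls (log2 fold change 0.18, 95% interval -0.10 to 0.46, adjusted p = 0.31). FLI1 peak 1 (chr11:128695569-128696509), the one nearest an end of the gene at 10437 bp, had 41.6, 58.7 and 74.9 reads in the controls and 26.5, 45.7 and 58.7 in the knockdown, and it missed the threshold (-0.40 ± 0.18, adjusted p = 0.0639). It passed by edgeR (adjusted p = 0.0357) and by DESeq2 without control replicate 4, control replicate 5 or knockdown replicate 6 (lowest adjusted p = 0.0224). By batch it passed in batch 1 (-0.96, adjusted p = 0.0335), whereas the value in batch 2 was 0.01 (adjusted p = 0.986). The difference between the batches had an unadjusted p of 0.00643 at this peak and an adjusted p of 1.0. FLI1 peaks 4 and 5 had log2 fold changes of 0.15 (adjusted p = 0.725) and -0.40 (adjusted p = 0.221).

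ERG (chr21:38367261-38661783) carried 1 strongly lost and 1 gained peak. ERG peak 2 (chr21:38486769-38487327, 559 bp) lies inside the gene, 11150 bp from the nearest listed ERG start. Its control libraries had 13.8, 23.4 and 29.3 reads (lowest, median, highest) and its knockdown libraries 1.86, 8.71 and 9.88. Every knockdown library was below every control library. The loss was 2.99-fold (log2 fold change -1.58 ± 0.31, adjusted p = 2.92e-06), with -1.17 in batch 1 (adjusted p = 0.158) and -1.88 in batch 2 (adjusted p = 0.000318).

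ERG peak 4 (chr21:38679445-38680211, 767 bp), the strongest of the 4, lies 17662 bp beyond the gene on the side of its higher coordinate, where the outermost listed ERG start also lies. The control libraries had 27.8, 39.5 and 45.6 reads and the knockdown libraries 44.1, 59.8 and 78.4. The groups overlapped by the lowest knockdown library, which was from batch 1. The log2 fold change was 0.57 ± 0.17 (adjusted p = 0.00406). It passed in batch 2 (0.81, adjusted p = 0.00553) and not in batch 1 (0.27, adjusted p = 0.695). ERG peak 3, the nearest to a listed start at 131 bp, had 9.31 to 27.3 reads in the controls and 6.52 to 28.5 in the knockdown (0.31 ± 0.32, 95% interval -0.33 to 0.94, adjusted p = 0.469). ERG peak 1 lies outside the gene nearer to KCNJ15 and was not called (-0.26, adjusted p = 0.44). The reads summed over all 4 peaks were 98.5 ± 10.7 (SD, n = 6) in the controls and 105 ± 18.1 in the knockdown, since the lost and the gained peak offset each other in the sum.

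**Figure D2:**
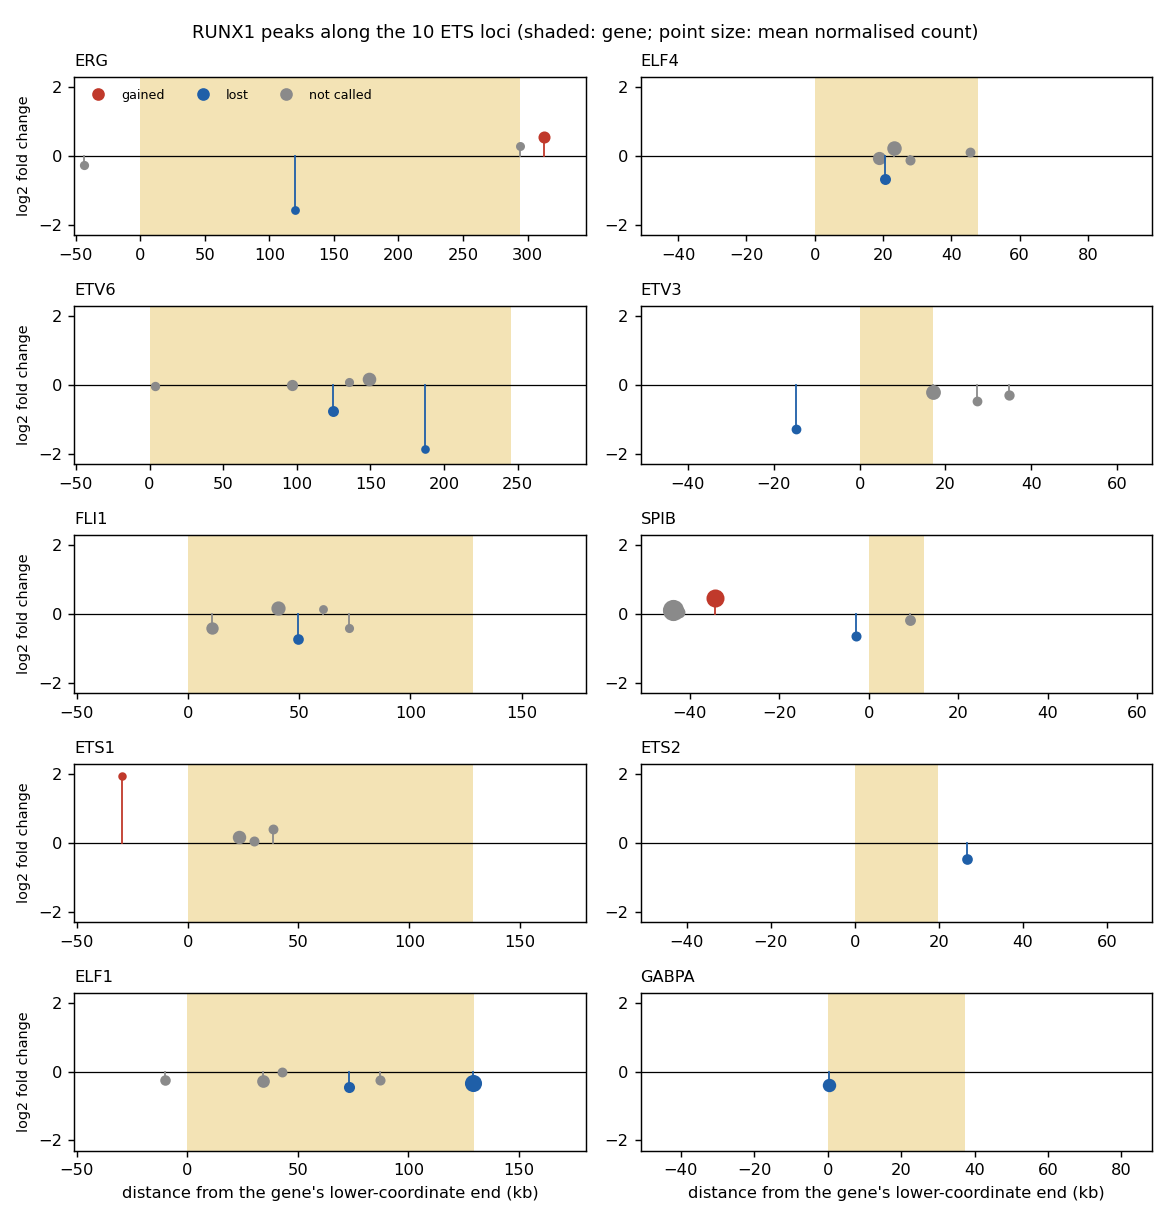
Positions of the 41 peaks along the 10 loci, as the distance of the peak centre in kb from the lower-coordinate end of the gene, against the log2 fold change, with the gene shaded and the point size set by the mean normalised count. The 3 gained peaks all lie outside the shaded spans, and the deepest losses, at ETV6, ERG and ETV3, are small points away from the gene ends.

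ETS1 and ETS2 are the founding members of the family, ETS1 being prominent in lymphoid cells. ETS1 (chr11:128458765-128587558) was the locus with no lost peak. ETS1 peak 1 (chr11:128428994-128429481, 488 bp) lies 29284 bp below the gene, within the lncRNA gene LOC124902789. It had 0, 5.20 and 9.48 reads in the lowest, median and highest control library and 11.9, 21.7 and 26.1 in the knockdown libraries. Every knockdown library was above every control library, and 1 control library had no read there. It was gained 3.85-fold (log2 fold change 1.94 ± 0.40, adjusted p = 7.97e-06), and it was called in batch 1 (2.99, adjusted p = 0.0135) and in batch 2 (1.42, adjusted p = 0.0133). This peak was also the narrowest and the weakest of the 41, with a mean normalised count of 12.6. The 3 peaks within ETS1 were not called. The strongest of them, peak 2 (chr11:128481105-128482923), had 42.8 to 89.5 reads in the controls and 52.3 to 78.3 in the knockdown (0.18, 95% interval -0.16 to 0.52, adjusted p = 0.416), and peaks 3 and 4 had values of 0.05 and 0.40.

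ETS2 (chr21:38805183-38824955) had a single RUNX1 peak (chr21:38831240-38832518), which lies 6285 bp beyond the gene and 25311 bp from the nearest listed start. The control libraries had 35.7, 38.4 and 49.4 reads and the knockdown libraries 24.7, 27.8 and 39.2, with 1 knockdown library inside the control range. The peak was lost (-0.47 ± 0.19, adjusted p = 0.0372), but the call rests on nearly every library. It failed when any 1 of 9 of the 12 libraries was left out, with adjusted p-values up to 0.135, the call holding only without control replicate 3, knockdown replicate 3 or knockdown replicate 6. Neither batch passed alone (-0.57, adjusted p = 0.35, and -0.37, adjusted p = 0.345).

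GABPA encodes the DNA-binding subunit of GA-binding protein, an activator of housekeeping and mitochondrial genes. Its only peak (chr21:25734405-25736138, 1734 bp) covers the promoter printed above and the start shared with ATP5PF, a subunit of mitochondrial ATP synthase. The control libraries had 59.8, 72.2 and 83.2 reads and the knockdown libraries 37.0, 54.7 and 65.8. Both batch 1 knockdown libraries lay within the control range. The peak was lost 1.3-fold (-0.38 ± 0.15, adjusted p = 0.0334), with -0.15 in batch 1 (adjusted p = 0.813) and -0.56 in batch 2 (adjusted p = 0.0462). The call failed without control replicate 1, 4 or 6 or knockdown replicate 1, 4 or 5 (adjusted p up to 0.124), and also when the median change of the surrounding 10 Mb was subtracted (adjusted p = 0.204).

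ELF1 and ELF4 are related factors active in lymphoid and myeloid cells. ELF1 (chr13:40931919-41061386) had 6 peaks, of which 2 were lost. ELF1 peak 6 (chr13:41059564-41062350, 2787 bp) is the widest of all members and covers the starts of ELF1 and of WBP4 and the tRNA gene TRE-TTC1-2. It had 83.2, 109 and 148 reads in the control libraries and 65.4, 89.5 and 107 in the knockdown libraries, and the ranges overlapped broadly. The loss was small (-0.31 ± 0.12, adjusted p = 0.0305) and did not pass in either batch (-0.38, adjusted p = 0.316, in batch 1 and -0.24, adjusted p = 0.348, in batch 2). ELF1 peak 4 (chr13:41004747-41005813), 21848 bp from a listed start, had 27.3, 45.6 and 62.1 reads in the controls and 29.96, 34.3 and 36.3 in the knockdown. Here the knockdown libraries were within the control range (-0.44 ± 0.19, adjusted p = 0.0419), and the change was seen in batch 2 (-0.69, adjusted p = 0.0218) and not in batch 1 (-0.04, adjusted p = 0.966).

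Both ELF1 calls depended on single libraries. Peak 6 failed without control replicate 1, 2 or 5 or knockdown replicate 1, 2, 4 or 5, with adjusted p-values up to 0.149. Peak 4 failed when any 1 of 9 libraries was left out, the call holding only without control replicate 1, control replicate 3 or knockdown replicate 2, with adjusted p-values up to 0.216. The 112 peaks of the 10 Mb window around ELF1 had a median of -0.17 on the log2 scale, and neither call held once that median was subtracted (adjusted p = 0.385 for peak 6 and 0.249 for peak 4). The other 4 ELF1 peaks had values between -0.28 and 0.01.

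ELF4 (chrX:130063955-130111858) had 5 peaks within the gene, and the lost one stood beside stronger peaks that were not called. ELF4 peak 2 (chrX:130083938-130085079, 1142 bp) lies 1854 bp from a listed start. The controls had 34.6, 46.8 and 53.8 reads and the knockdown libraries 22.3, 29.6 and 34.4. Every knockdown library was below every control library, though by a narrow margin. The log2 fold change was -0.67 ± 0.19 (adjusted p = 0.0014), with -0.38 in batch 1 (adjusted p = 0.582) and -0.86 in batch 2 (adjusted p = 0.00607). ELF4 peak 3 (chrX:130086317-130087900), over the internal start whose promoter is printed above, was the strongest and had 34.7 to 90.3 reads in the controls and 70.8 to 85.7 in the knockdown (0.23, 95% interval -0.06 to 0.53, adjusted p = 0.212). The remaining peaks 1, 4 and 5 had values of -0.05, -0.13 and 0.12, peak 5 being 419 bp from another listed start.

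ETV6, a repressor with a pointed domain that is needed for adult hematopoietic stem cells, had the deepest loss of the 10 genes. All 6 peaks lay within the gene (chr12:11649674-11895377). ETV6 peak 6 (chr12:11836193-11837078, 886 bp) had 6.50, 22.4 and 36.9 reads in the lowest, median and highest control library and 3.95, 6.17 and 11.2 in the knockdown libraries. Control replicate 1, at 6.50 reads, fell within the knockdown range, but within each batch all control libraries were above all knockdown libraries. In batch 1 the margin was very narrow, since knockdown replicate 1 had 6.39 reads. The loss was 3.6-fold (-1.85 ± 0.36, adjusted p = 1.91e-06), and it was called in batch 1 (-2.09, adjusted p = 0.0315) and in batch 2 (-1.69, adjusted p = 0.00133).

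ETV6 peak 3 (chr12:11773533-11774618, 1086 bp) was also lost. The controls had 29.5, 47.4 and 64.5 reads and the knockdown libraries 22.3, 27.2 and 36.5. The overlap came from control replicate 4 of batch 2 and knockdown replicate 1 of batch 1, and the groups were apart within each batch. The log2 fold change was -0.77 ± 0.19 (adjusted p = 0.000323), and it passed in batch 2 (-0.89, adjusted p = 0.0108) but not in batch 1 (-0.59, adjusted p = 0.289). The strongest peak of the gene, peak 5 (chr12:11798671-11799482), was not called, with 38.2 to 84.1 reads in the controls and 60.6 to 74.0 in the knockdown (0.17, adjusted p = 0.382). The peak nearest the start, peak 1 (chr12:11653186-11653951, 3512 bp away), had a value of -0.03 (95% interval -0.51 to 0.44), and peaks 2 and 4 had 0.01 and 0.09. The 2 lost peaks of ETV6 lay 123859 and 186519 bp from the listed start.

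ETV3, a repressor of the ERF group that is linked to growth arrest in macrophages, had 4 peaks. ETV3 peak 1 (chr1:157106097-157106897, 801 bp) lies 14294 bp outside ETV3 and closer to the related gene ETV3L, whose start is 6289 bp away. It had 28.8, 36.4 and 43.2 reads in the controls and 9.22, 14.4 and 21.4 in the knockdown libraries. Every knockdown library was below every control library. It was lost 2.44-fold (-1.29 ± 0.24, adjusted p = 5.75e-07, the smallest among the members). The values in the batches were close, -1.22 in batch 1 (adjusted p = 0.0614) and -1.31 in batch 2 (adjusted p = 0.000739). Its 10 Mb window had a median of -0.19, and the call held after that was subtracted (adjusted p = 2.56e-05).

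The peak over the ETV3 start, peak 2 (chr1:157136928-157139660), was the strongest there and was not called, with 66.1 to 102 reads in the controls and 62.1 to 86.9 in the knockdown (-0.19, 95% interval -0.47 to 0.08, adjusted p = 0.272). ETV3 peak 3 (9778 bp from the start) had a value of -0.46 ± 0.22 (adjusted p = 0.0785), and its libraries were lower in the knockdown within both batches without passing the test. Peak 4 had -0.29 (adjusted p = 0.271).

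SPIB is the closest relative of PU.1 among the 10 and acts in B cells and plasmacytoid dendritic cells. Its locus (chr19:50418938-50431314) is gene-dense, and of the 5 peaks only peak 5 lies within SPIB itself (-0.19, adjusted p = 0.444). SPIB peak 4 (chr19:50415618-50416379, 762 bp) lies 2559 bp before the listed SPIB start, within the neighbouring gene POLD1. The controls had 20.5, 35.8 and 46.8 reads and the knockdown libraries 15.8, 21.4 and 28.3. The groups overlapped through control replicate 2 (20.5 reads). The peak was lost (-0.65 ± 0.23, adjusted p = 0.0128), with -0.37 in batch 1 (adjusted p = 0.663) and -0.86 in batch 2 (adjusted p = 0.0271), and the call failed without control replicate 4 (adjusted p = 0.0707).

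SPIB peak 3 (chr19:50383407-50385721, 2315 bp) was gained, but it covers the start of POLD1, the catalytic subunit of DNA polymerase delta, 33217 bp from the SPIB start. The controls had 80.9, 90.5 and 109 reads and the knockdown libraries 102, 131 and 142. The groups overlapped over all 12 libraries and were apart within each batch. The log2 fold change was 0.48 ± 0.12 (adjusted p = 0.000475), with 0.46 in batch 1 (adjusted p = 0.198) and 0.50 in batch 2 (adjusted p = 0.0213). The strongest of all members, SPIB peak 1 (chr19:50374621-50375690, mean 140.6 reads), lies 767 bp from the start of NR1H2, the gene of the liver X receptor beta, and was not called (0.13, adjusted p = 0.35), nor was its neighbour peak 2 (0.05).

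**Figure D3:**
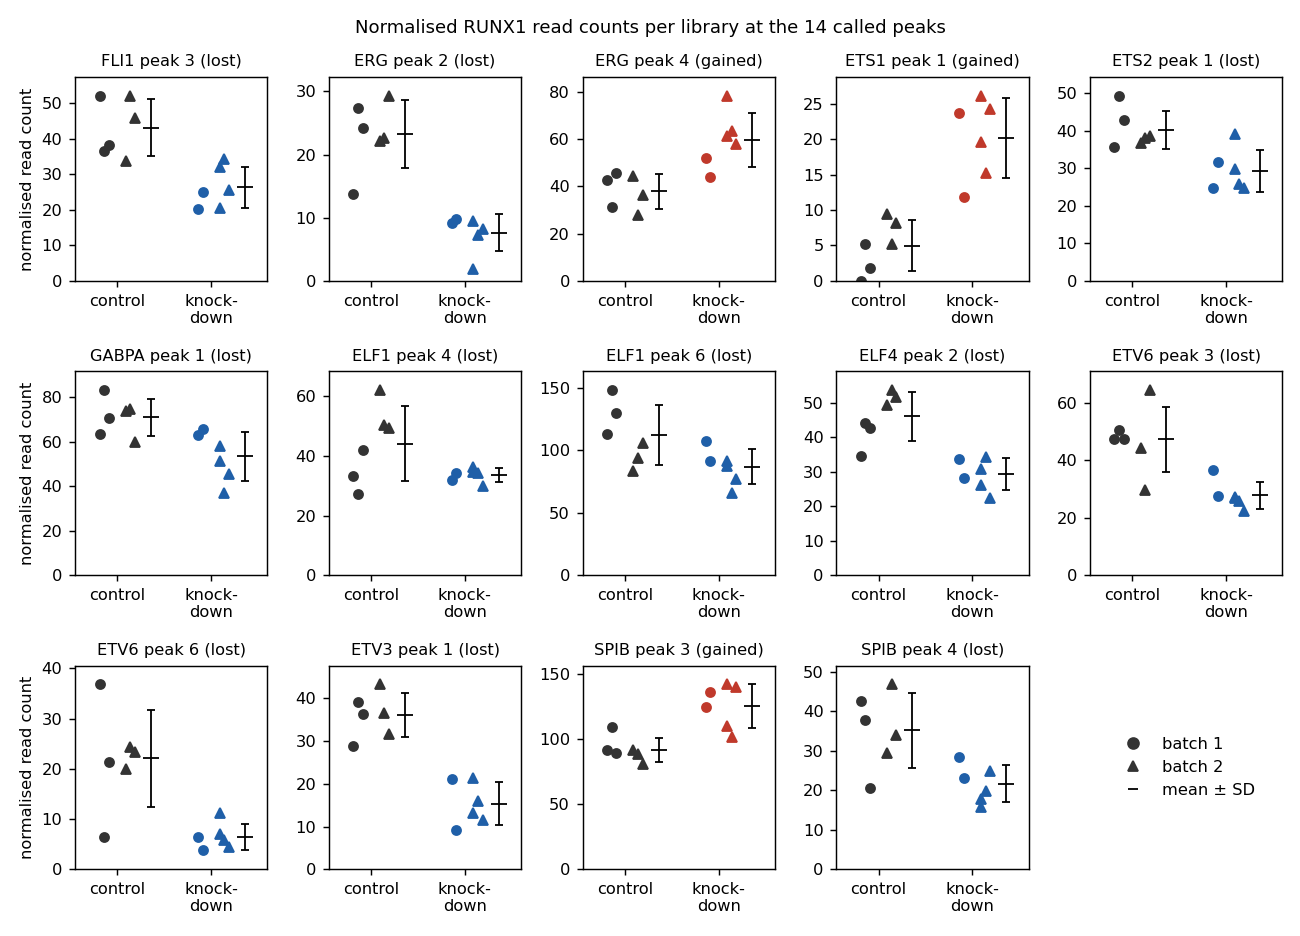
Normalised RUNX1 read count of each library at the 14 called peaks, with control and knockdown side by side, circles for batch 1, triangles for batch 2 and bars for the mean ± SD of 6 libraries. The groups are fully apart at ERG peak 2, ETS1 peak 1, ELF4 peak 2 and ETV3 peak 1, and they overlap at the other 10.

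The peaks were also counted by position. Of the 29 peaks that overlapped a member gene, 8 were lost and 0 gained by DESeq2. By edgeR the gains there were also 0, and 0 of these 29 peaks had a value above 0 at an unadjusted p under 0.05. Of the 12 peaks outside, 3 were lost and 3 gained. Over all peaks, 18.3% of those that overlapped any protein-coding gene were gained and 20.2% lost, against 26.1% and 21.5% of those that overlapped none. The 2 splits are not alike, since the members were split by their own gene only. SPIB peaks 2, 3 (gained) and 4 (lost) were counted as outside though they overlap NR1H2 or POLD1. The nearest protein-coding gene was not the member at 6 of the 41 peaks, and over the other 35 peaks 11 were called, 9 of them lost and 2 gained. FLI1 and ETS1 have no entry in the table of starts, so distances to a start cover the other genes and their neighbours. Within 1 kb of a listed protein-coding start were 9 peaks, 2 lost, 1 gained and 6 not called, with log2 fold changes from -0.38 to 0.48. The other 32 peaks held 9 losses and 2 gains and ran from -1.85 to 1.94. All 4 changes of more than 2-fold were among these 32. Over all peaks, a change of more than 2-fold was called at 2.2% of those within 1 kb of a listed start and at 20.9% of the others. Of all peaks within 1 kb of such a start, 4.35% were gained and 17.7% lost, against 25.7% and 21.5% of the others.

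Levels of occupancy were compared between the genes per length of peak, as a description. No IgG reads were subtracted, and the copy number of the loci was not corrected for. Over all its peaks, each gene's normalised reads per kb of peak in the controls were highest at SPIB (56.9 ± 2.86, SD, n = 6), followed by FLI1 (49.8 ± 6.46), ETV6 (42.6 ± 5.90), GABPA (40.9 ± 4.84) and ELF1 (40.8 ± 1.80). ERG (34.7 ± 3.77), ELF4 (33.3 ± 4.55), ETV3 (33.0 ± 3.13), ETS2 (31.5 ± 3.97) and ETS1 (26.7 ± 6.997) followed. Neighbours in this order differed by more than the larger of their SDs only between SPIB and FLI1, between FLI1 and ETV6 and between ELF1 and ERG. In the knockdown the same measure was 62.2 ± 3.32 at SPIB and 24.7 ± 1.13 at ETV3 and 22.9 ± 4.38 at ETS2, the lowest values. The ratio of the summed reads, knockdown over control, ran from 0.728 at ETS2 and 0.748 at ETV3 to 1.29 at ETS1. These sums are given without a test, and they hide opposite changes within a locus, as at ERG with a ratio of 1.06. The first rank of SPIB is not one of that gene alone. Only its peak 5 lies within SPIB, with 50.8 reads per kb over all 12 libraries. SPIB peak 1, 767 bp from the NR1H2 start, had 131.4, and peaks 2 and 3 overlap NR1H2 and POLD1.

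Within batch 1, DESeq2 called 3 of the 41 peaks (1 gained, 2 lost), where 12% of all peaks were called. Within batch 2 it called 11 (3 gained, 8 lost), where 25.8% were. ETS1 peak 1 and ETV6 peak 6 were called in both. The calls within a batch depended on single libraries. In batch 1 DESeq2 called 0 peaks without control replicate 2 or 3 or knockdown replicate 1 or 2, with 2 to 6 at an unadjusted p under 0.05, whereas edgeR called 8 with all libraries. In batch 2 it called 5 without control replicate 5 and 6 without control replicate 4 or knockdown replicate 5. All 11 calls of batch 2 were among the 14 calls over both batches, while FLI1 peak 1 was called in batch 1 and not over both. All 14 called peaks had the same sign in the batches, and 15 of the 27 uncalled peaks had opposite signs. The 14 calls were made on both batches together, so neither overlap nor sign is independent of them. The test of the difference between the batches passed at 0 of the 41 peaks by DESeq2 (lowest adjusted p = 0.9999) and also at 0 of all peaks. At an unadjusted p under 0.05 it passed at 3 of the 41 members, FLI1 peak 1, ELF4 peak 1 and ETV6 peak 5. This was a larger share than the 2.51% of all peaks, but it rests on 3 peaks. At 8 of the 41 members the control and knockdown libraries were fully apart, in the same direction within both batches. In the knockdown 6 of the 8 were lower and 2 higher. This was a smaller share than the 28.3% of all peaks. Called among the 8 were ERG peak 2, ETS1 peak 1, ELF4 peak 2, ETV6 peaks 3 and 6, ETV3 peak 1 and SPIB peak 3, and the uncalled one was ETV3 peak 3.

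**Figure D4:**
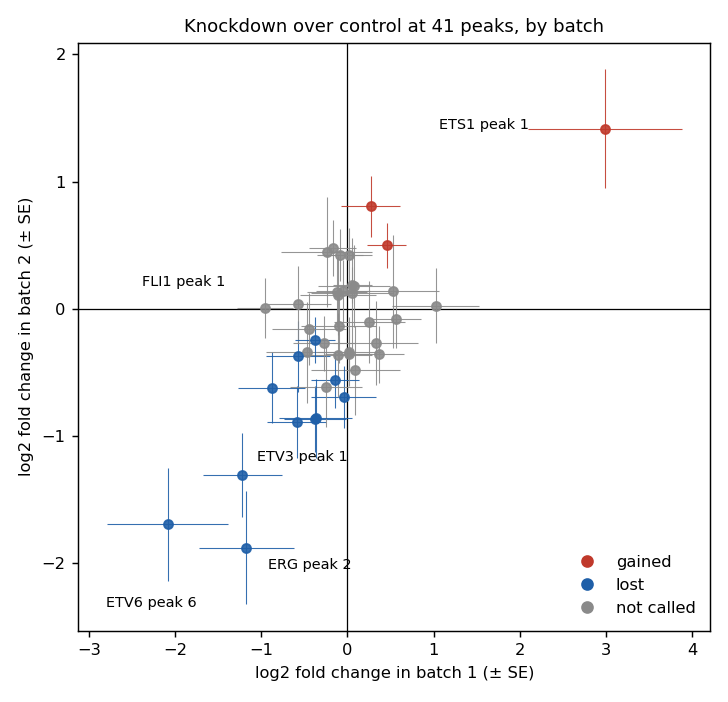
Log2 fold change, knockdown over control, of the 41 peaks in batch 1 (horizontal axis) and in batch 2 (vertical axis), with bars for ± 1 SE. ETS1 peak 1 sits far up on the right and ETV6 peak 6, ERG peak 2 and ETV3 peak 1 far down on the left, while FLI1 peak 1 is at -0.96 in batch 1 and 0.01 in batch 2.

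The remaining 18 ETS family genes served for comparison. RUNX1 peaks lay within 50 kb of 17 of them, SPIC having none, and numbered 61. Of these, 8 were gained and 10 lost, 29.5% in all beside 42% of all peaks, with a median log2 fold change of -0.08. SPI1, the gene of PU.1, had 9 peaks, of which 4 were lost, 3 of these lying nearest to the neighbouring gene SLC39A13, and the values of all 9 lay between -1.87 and -0.06. The strongest loss there (chr11:47390876-47391526) went from 48.0 ± 4.27 (SD, n = 6) to 13.2 ± 2.74 normalised reads (-1.87, adjusted p = 5.16e-16). The SPI1 window had the most lost peaks of the 28 ETS genes examined, but it also had the most peaks, 9. Over all peaks 20.7% were lost. The gains included 1 at SPDEF, an epithelial ETS factor, from 29.8 ± 3.98 to 76.5 ± 12.9 reads (1.33, adjusted p = 1.74e-12). They also included 2 peaks of ERF, a repressor related to ETV3 (0.91 and 0.55), both nearest to DEDD2. ETV7, the paralog of ETV6, had 1 lost peak nearest to PNPLA1 (-1.33) and 1 gained peak nearest to BNIP5 (0.95). The single peak in the ETV3L window other than those of ETV3 lies nearer to ARHGEF11 and was gained (1.87, adjusted p = 1.74e-09). The other gains were in the windows of ELF3 (1.74), ETV1 (0.99) and ELK1 (0.95). The other losses were in those of ELK4 (-0.69), ELF5 (-1.335), EHF (-0.61), ETV5 (-1.06) and ELK1 (-0.31). The shares of called peaks in the 2 groups of ETS genes, 34.1% and 29.5%, were not tested against each other.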

How the data were processed

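RUNX1 ChIP-seq was measured in 12 of the 20 samples. The 8 IgG libraries were not analysed here. The table deposited by the authors rests on 1 common set of macs2 peaks, made from both conditions and limited by the irreproducible discovery rate to peaks seen in both batches, over which featureCounts counted deduplicated bowtie2 alignments. It holds the unnormalised counts deposited per peak and library, beside a column of peak widths. The peaks were called on the libraries that are compared, so the set of peaks is not independent of the comparison. Versions of the aligner, peak caller and read counter were not given in the sources used here. The methods name a mouse build for these human cells. The coordinates were taken as GRCh38 because 17.7% of the peaks covered a protein-coding start of the RefSeq table of GRCh38.p14, against 0.965% to 1.39% after shifts of 100 to 1000 kb. That table gives gene spans and starts but no exons, so exons and introns are not named.

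Counts were tested with DESeq2 1.42.0 in R 4.3.3, over all 26642 peaks, scaled by median-of-ratios size factors and adjusted for batch, since the groups were unbalanced. Each batch was also tested alone, and the product of genotype and batch was tested in a further model. edgeR 4.0.16 (quasi-likelihood), other scalings, a count minimum, other windows, stricter thresholds and leaving out each library in turn were alternatives. Totals refer to reads within peaks, and the p-values measure the spread between immunoprecipitations of 1 pair of cell lines. The list of genes was drawn up with earlier results of these data known, and its peaks were then taken by position alone, so the members and lists are not independent of those results. Named for each gene were the peak nearest its start (or nearest gene end), the strongest peak and every called peak, with other peaks given by count, range or value.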

Additional observations from a re-analysis of the deposited data

Results flagged for a closer look

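A library far from the other 5 of its group was found in 3 of 66 groups of 6 libraries examined (23 named peaks and 10 locus sums, each in both groups), and chance gives about 1 in 20. At ERG peak 2, which was lost, knockdown replicate 6 had 1.86 normalised reads, while the other knockdown libraries had 7.27 to 9.88. At FLI1 peak 2, not called, knockdown replicate 3 had 65.3 reads against 73.1 to 76.4 in the others. At the ETV3 start, peak 2, also not called, knockdown replicate 2 had 86.9 reads against 62.1 to 70.1.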

How the results depend on the processing

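The 14 calls were 15 with edgeR, which kept all 14 and added FLI1 peak 1, and 13 or 14 with other scalings, without the batch term, without independent filtering or on autosomes alone. Requiring at least 10 counts in every library left 34 of the 41 peaks, 11 of the 14 called ones among them, and gave 7 calls, 5 of them lost, with 10 in the other ETS genes. An adjusted p under 0.01 gave 9 calls with 6 lost, and a fold over 2 gave 4 with 1 gained and 3 lost. Windows of 25 and 100 kb gave 12 and 19 calls, with 1 and 5 gained, and the gene span alone 8 with 0 gained. Restricting the members to those whose nearest gene is the member, chosen after seeing the data, gave 11 calls. Batch 1 alone gave 3, with 1 gained and 2 lost. Centring on the 10 Mb window gave 11, losing GABPA peak 1 and ELF1 peaks 4 and 6. Leaving out 1 library gave 10 to 14 calls, with 3 gained in each case and 7 to 11 lost, the 7 without knockdown replicate 1, 4 or 5. The causes were not tested.

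In batch 1, edgeR gave 8 calls, and leaving out 1 library left 0 to 2 by DESeq2 (0 without control replicate 2 or 3 or knockdown replicate 1 or 2), with 2 to 6 peaks at an unadjusted p under 0.05. The lone library of such an arm was assumed to vary like the others. In batch 2, edgeR gave 14, and leaving out 1 library left 5 to 9, with 6 without control replicate 4 or knockdown replicate 5 and 5 without control replicate 5. The batch fits by edgeR or with a library left out were chosen after seeing the data.

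With the replicate number as a replicate block the calls were 11, with 3 gained and 8 lost. ETS2 peak 1 (adjusted p = 0.0953), GABPA peak 1 (0.0538) and ELF1 peak 4 (0.181) no longer passed. The numbers mark no shared animal or day in the labels, and replicate 3 lies in different batches. After each group's mean was subtracted at every peak, the deviations of same-numbered libraries had correlations from -0.09 to 0.24. Differences between the batches were not subtracted there. Only 1 of 6 numbers correlated best with its own. On these grounds the block is not read as pairing.

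Only the 23 named peaks were followed through all settings, and among them direction reversed only at uncalled peaks. Over all 41 peaks, 15 of the 27 uncalled ones had opposite signs in the 2 batches. The reversals among the named peaks were as follows. ETV6 peak 1 was 0.008 without the batch term and 0.008 with the replicate block, 0.034 with the count minimum, 0.331 in batch 1, and -0.123 to 0.061 with 1 library left out. In batch 1, FLI1 peak 2 was -0.081, ETV6 peak 5 -0.172 and ETV3 peak 2 0.016. In batch 2, FLI1 peak 1 was 0.008 and ETS1 peak 2 -0.082. Depth limits the weak peaks most, the standard error being 0.40 at ETS1 peak 1.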
